A study of Mus musculus with 7 samples.

Results

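Goblet cells are the mucus-secreting cells of the intestinal epithelium, and 10 genes of their secretory program were followed through all arrays of a diet study of sorted mouse Paneth cells. The genes were chosen by name as Muc2, Tff3, Agr2, Fcgbp, Clca1, Zg16, Spink4, Retnlb, Tpsg1 and Guca2a, and each was read from its brightest transcript cluster, which is the set of probes that the array assigns to one gene. Of the 10 genes, 9 had a cluster that names a single gene, out of 19938 genes so named on the array. Fcgbp, a large mucus protein, is named only by 3 clusters that also carry other genes, so no value is given for it. The study measured total RNA of isolated Paneth cells from mice aged 4 months on 7 Affymetrix arrays, 1 array per sample. In 4 samples the mice had received 60% of the ad libitum calories (calorie restricted), and in 3 they had fed freely (ad libitum). Each diet was given for 4 to 7 weeks before the Paneth cells were sorted. The labels call the samples biological replicates. The sources used here do not give the strain, the sex or the number of animals behind each sample.

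The mucus of the intestine is built on MUC2, a gel-forming mucin that is folded and cross-linked through disulfide bonds in the endoplasmic reticulum, packed into granules and released to swell over the epithelium. Goblet cells add peptides and lectins to this gel, and they arise from the same secretory precursors as Paneth cells, the lysozyme- and defensin-filled cells of the crypt base. Several genes studied here are not exclusive to goblet cells. Agr2 and Spink4 are also made by other secretory cells of the crypt, and Guca2a by absorptive cells.

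Promoter sequence from RefSeq (mouse assembly GRCm38.p6) was matched for 5 of the 10 genes. The 250 bases before the start of Muc2, Agr2 and Guca2a are shown because these windows lie wholly upstream of the annotated gene and the gene has a value here. In the values below, Muc2 is a gene whose diets did not overlap, and Agr2 and Guca2a are a pair that varied together between arrays. Capitals mark matches, on either strand, to 4 short motifs. These are an E-box (CAGNTG, the kind of site read by ATOH1), a forkhead site (TGTTTNC, FOXA factors), a Cdx site (TTTATG, CDX factors of the intestine) and a TATA box (TATAAA, the general transcription machinery).
Muc2, chr7:141690090-141690339, plus strand: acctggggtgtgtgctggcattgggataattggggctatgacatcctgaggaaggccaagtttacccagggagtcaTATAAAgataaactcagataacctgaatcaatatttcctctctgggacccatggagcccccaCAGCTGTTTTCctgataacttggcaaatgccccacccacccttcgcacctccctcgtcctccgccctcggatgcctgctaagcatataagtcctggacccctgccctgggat
Agr2, chr12:35992675-35992924, plus strand: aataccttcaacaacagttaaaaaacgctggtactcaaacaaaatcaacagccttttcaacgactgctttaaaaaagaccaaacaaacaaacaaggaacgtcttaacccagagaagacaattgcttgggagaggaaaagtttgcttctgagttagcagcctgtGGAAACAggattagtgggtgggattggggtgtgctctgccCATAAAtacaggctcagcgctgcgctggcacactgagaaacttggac
Guca2a, chr4:119637482-119637731, plus strand: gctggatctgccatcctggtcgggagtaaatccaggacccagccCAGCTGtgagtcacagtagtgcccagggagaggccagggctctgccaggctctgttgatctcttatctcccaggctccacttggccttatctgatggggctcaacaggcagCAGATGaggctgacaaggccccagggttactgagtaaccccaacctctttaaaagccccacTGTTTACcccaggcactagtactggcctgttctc
The Muc2 window holds a TATAAA match from 174 to 169 bases before the start, and an E-box from 112 to 107 that overlaps a forkhead match from 108 to 102. The Agr2 window holds a forkhead match (87 to 81) and a Cdx match (47 to 42), and the Guca2a window holds 2 E-boxes and a forkhead match 34 to 28 bases before the start. Over all 32851 promoter windows of this length in the table, 44.8% hold the E-box, 17.8% the forkhead match, 10.8% the Cdx match and 12.4% the TATAAA letters. A match describes the letters only.

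Levels are given as deposited log2 values. Differences are calorie restricted minus ad libitum in log2 units with the standard error (SE) of a limma fit over all genes, and p-values are adjusted by the Benjamini-Hochberg method over 13409 genes. Array medians ran from 7.24 to 7.44, the highest value of each array lay between 14.60 and 14.67, and no pair of arrays was identical. The Paneth markers Lyz1 (lysozyme, mean 14.31 under both diets) and Clps (colipase) were near the top of that range on every array. All 9 measured genes lay above the filter level of 6.79 on each array, the lowest single value being 8.09. The level of one gene cannot be set against that of another, because probes differ.

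None of the 9 genes passed an adjusted p of 0.05 (limma), where 0.664% of all genes tested did. At an unadjusted p below 0.05 there were 4 of 9, beside 9.3% of all genes. The same 4 genes were those whose diets did not overlap, beside 10.2% of all genes. The genes were chosen with earlier results of these data known, and they vary together in part. The counts in this paragraph therefore describe the set and are no test of it. Muc2, Retnlb and Tpsg1 were lower in every calorie-restricted array (3.03% of all genes), and Zg16 was higher (7.14%). After median centring of the arrays the non-overlapping genes were Zg16 and Retnlb alone. The differences were below 0 for 8 of 9 genes, beside 45.8% of all genes, with a median of -0.06 against 0.01 over all genes. Of these, 4 (Tff3, Agr2, Spink4 and Guca2a) were between -0.06 and -0.02, and they were above 0 once arrays were centred on their medians, which left 4 of 9 below 0 and a median over all genes of 0.10. Without calorie-restricted replicate 4 the differences were below 0 for 6 of 9, with a median of -0.03. Before centring, Paneth markers had a like tendency, 14 of 15 below 0 with a median of -0.05. That median lies within the -0.06 to -0.02 of the 4 genes whose sign changed with centring. The Paneth list was not counted after centring. In RNA of a bulk sort, fewer goblet cells and less goblet RNA per cell cannot be told apart, nor can RNA of goblet cells carried in the sort be told apart from expression in Paneth cells.

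**Figure D1:**
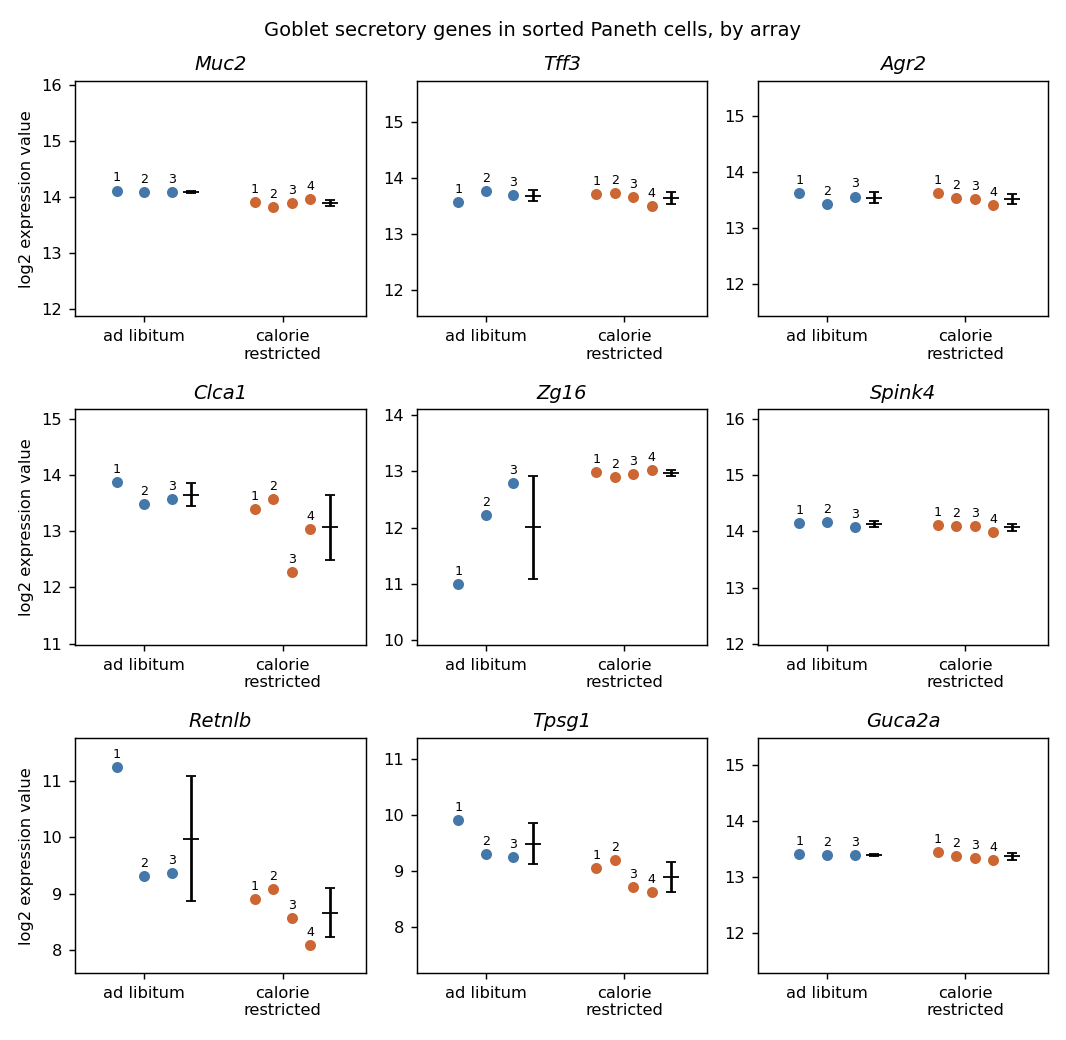
Deposited log2 values (y axis) of the 9 measured genes in 3 ad libitum (blue) and 4 calorie-restricted (orange) samples. Numbers are the replicates of the labels, bars are mean ± SD, and every panel spans the same number of log2 units. Retnlb, Zg16, Clca1 and Tpsg1 spread widely between arrays, while Muc2, Spink4 and Guca2a stay within 0.29, 0.19 and 0.15 log2 units over all arrays.

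The mucus polymer gene Muc2 was at 14.12, 14.08 and 14.09 in ad libitum replicates 1 to 3. It was at 13.90, 13.82, 13.89 and 13.96 in calorie-restricted replicates 1 to 4. Every calorie-restricted array lay below every ad libitum array, with a gap of 0.12. The means were 13.90 ± 0.06 (SD, n = 4) and 14.10 ± 0.02 (n = 3), a 1.15-fold difference of -0.20 ± 0.06 (95% interval -0.33 to -0.07) that did not pass the threshold (limma, adjusted p = 0.249). Its spread within a diet was among the smallest on the array, at percentile 1.76 of all genes tested. After median centring the difference was -0.11 ± 0.09 and the diets overlapped. Values this high are near the top of the scale. Of 99 genes with a mean of at least 13, none passed the threshold, the largest difference in size was 0.58, the median spread within a diet was 0.09 against 0.15 over all genes, and 6.06% had diets that did not overlap.

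Agr2 encodes a protein disulfide isomerase of the endoplasmic reticulum that is needed to make MUC2. It was at 13.64, 13.44 and 13.57 in the ad libitum samples and at 13.63, 13.54, 13.52 and 13.42 under calorie restriction. The ranges overlapped almost completely, and the difference was -0.02 ± 0.08 (95% interval -0.19 to 0.15).

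Clca1, a secreted metalloprotease that cleaves MUC2 in the mucus, varied most within the calorie-restricted group. Its values there were 13.40, 13.58, 12.27 and 13.04, against 13.88, 13.50 and 13.58 in the ad libitum samples. Calorie-restricted replicate 3 was the lowest, and replicate 2 lay inside the ad libitum range. The difference was -0.58 ± 0.28 (limma, adjusted p = 0.617), and -0.31 ± 0.16 without calorie-restricted replicate 3.

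Tff3, the trefoil peptide of the mucus layer, was at 13.57, 13.76 and 13.70 in the ad libitum samples. Under calorie restriction it was at 13.70, 13.73, 13.65 and 13.48. The diets overlapped, and the 95% interval of the difference ran from -0.22 to 0.15.

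Retnlb had the largest difference of the 9 genes. It encodes resistin-like molecule beta, a goblet cell product with antibacterial activity that is induced in type 2 immune responses. Its values were 11.26, 9.31 and 9.36 in ad libitum replicates 1 to 3, and 8.90, 9.09, 8.56 and 8.09 in calorie-restricted replicates 1 to 4. All calorie-restricted arrays lay below all ad libitum arrays, but ad libitum replicate 1 stood 1.95 above the lowest of its own group. The means were 8.66 ± 0.44 (n = 4) and 9.98 ± 1.11 (n = 3). That is 2.50-fold lower under calorie restriction, a difference of -1.32 ± 0.47 (95% interval -2.41 to -0.24, limma, adjusted p = 0.407). Without ad libitum replicate 1 the difference was -0.68 ± 0.25 (adjusted p = 0.306).

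Zg16, a lectin of the mucus that binds the cell wall of Gram-positive bacteria, lay in the opposite direction. It was at 10.99, 12.23 and 12.79 in ad libitum replicates 1 to 3 and at 12.99, 12.90, 12.95 and 13.02 in calorie-restricted replicates 1 to 4. The calorie-restricted samples were within 0.13 of each other, and the ad libitum samples spread over 1.80. The means were 12.97 ± 0.06 (n = 4) and 12.00 ± 0.92 (n = 3), a 1.95-fold difference of 0.96 ± 0.35 (95% interval 0.15 to 1.78, limma, adjusted p = 0.428). Without ad libitum replicate 1, the lowest array, it was 0.46 ± 0.14 (adjusted p = 0.226).

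Spink4, a Kazal-type protease inhibitor, was at 14.15, 14.17 and 14.08 in the ad libitum samples. Under calorie restriction it was at 14.12, 14.10, 14.10 and 13.98, with replicate 4 below the others. The difference was -0.06 ± 0.06 (95% interval -0.20 to 0.08).

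Tpsg1 encodes a membrane-anchored serine protease of the tryptase family. Its values were 9.91, 9.30 and 9.24 in ad libitum replicates 1 to 3 and 9.05, 9.19, 8.71 and 8.63 in calorie-restricted replicates 1 to 4. The diets were separated by 0.05. The difference was -0.59 ± 0.20 (95% interval -1.05 to -0.13, 1.51-fold lower, limma, adjusted p = 0.379), which became -0.38 ± 0.17 (adjusted p = 0.395) when ad libitum replicate 1 was left out. After median centring it was -0.50 ± 0.24 and the diets overlapped. Other tryptases mark mast cells. Of 12 mast cell markers, 8 were below the filter level of 6.79. The 4 above it were Tpsb2 (-0.26 ± 0.14), Kit (-0.19 ± 0.20), Hdc (-0.003 ± 0.08) and Gata2 (-0.0008 ± 0.10), the last 2 showing practically no difference. Kit was highest in ad libitum replicate 1, and Hdc and Gata2 were not. The mean of the list was 6.24 to 6.33 under calorie restriction and 6.30 to 6.41 in the ad libitum samples. Kit raises that mean, being at 11.86 under calorie restriction and 12.05 in the ad libitum samples. Whether Kit was read from mast cells was not tested. The mast cell tryptase Tpsb2 was at 7.64, 7.12 and 7.02 in ad libitum replicates 1 to 3 and between 6.92 and 7.05 under calorie restriction, so that, like Tpsg1, it was highest in ad libitum replicate 1. The part of mast cells in the values of Tpsg1 was not tested.

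Guca2a encodes guanylin, the peptide that activates guanylate cyclase C on neighbouring cells and so drives chloride and fluid secretion. It was at 13.42, 13.38 and 13.38 in the ad libitum samples and at 13.45, 13.37, 13.34 and 13.30 under calorie restriction. Its difference of -0.03 ± 0.06 had a 95% interval of -0.17 to 0.11.

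**Figure D2:**
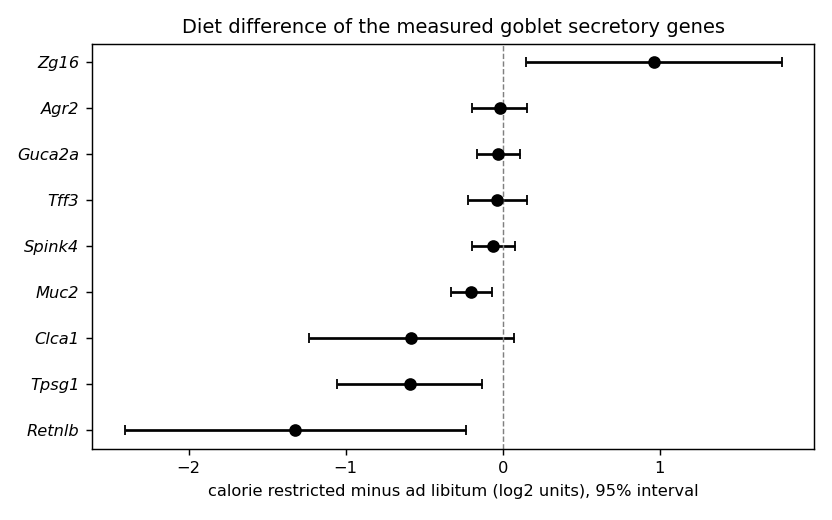
Diet difference of the 9 measured genes (x axis, calorie restricted minus ad libitum in log2 units) with 95% intervals of the limma fit, not adjusted for the number of genes. The intervals of Retnlb, Tpsg1 and Muc2 lie below 0 and that of Zg16 above 0, and none of the 9 passed after adjustment over all genes.

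The genes fell into a group with a wide spread within a diet and a group with a narrow one. The standard deviation within diets was 0.78 for Retnlb, 0.59 for Zg16, 0.47 for Clca1 and 0.31 for Tpsg1, at percentiles 99.6, 98.3, 96.3 and 88.5 of all genes tested. Guca2a (0.05), Spink4 (0.06), Agr2 (0.09) and Tff3 (0.11) lay between percentiles 2.54 and 26.2. These narrow genes all have means above 13, where the median spread was 0.09 against 0.15 over all genes. Agr2 and Tff3 are thus not narrow for their level. Ad libitum replicate 1 was the highest array for 5 of the 9 genes (Muc2, Agr2, Clca1, Retnlb and Tpsg1) and the lowest for Zg16. Over all genes tested it was the highest array for 24.3% and the lowest for 21.8%. Calorie-restricted replicate 4 was the lowest array for 6 of the 9 (Tff3, Agr2, Spink4, Retnlb, Tpsg1 and Guca2a), beside 20.3% of all genes.

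Covariation between the genes was described with each diet's mean removed, over 7 arrays. Genes read from the same array share the sort and scaling of that array. Among 36 pairs the median Pearson correlation was 0.12, and 21 were above 0. Retnlb and Tpsg1 varied together most closely (r = 0.94), followed by Agr2 and Guca2a (r = 0.80). Zg16 varied against Retnlb (r = -0.87) and Tpsg1 (r = -0.76), and Muc2 against Tff3 (r = -0.83). The values for Zg16 rest largely on the ad libitum samples, since it spanned only 0.13 under calorie restriction. In ad libitum replicate 1 the deviation was -1.01 for Zg16, 1.28 for Retnlb and 0.43 for Tpsg1. The genes outside the set whose deviations were most like those of Muc2 were Actl7b (r = 0.995), Toe1, Scarf1, Pcbd2 and Pigr, the polymeric immunoglobulin receptor (r = 0.962). Those most like the mean of the 9 genes were Sap30 (r = 0.985), Rad54l2, Selenbp1, Tmem126b and Slc30a9 (r = 0.978). With so few arrays such values are reached by many genes, and 12 and 29 genes had r above 0.95.

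Markers of other cells differed between the diets or between single arrays. Enterocyte markers were higher under calorie restriction in 27 of 28 genes measured, beside 7268 of 13409 genes tested. Past the threshold (limma) were 12 of the 28, beside 0.664% of all genes. Leaving out one calorie-restricted sample at a time (replicates 1 to 4) gave 3, 3, 2 and 6 such genes. There were 8 when ad libitum replicate 2 was left out, 7 after quantile normalization and 0 with the replicate block. Their mean was 11.74 to 11.95 in the calorie-restricted samples and 10.40 to 11.02 in the ad libitum samples. Ad libitum replicate 2 had the lowest enterocyte mean and replicate 1 the lowest Zg16. The mean of 15 Paneth markers ranged from 12.34 to 12.71 under calorie restriction and from 12.58 to 12.90 in the ad libitum samples. It was highest in ad libitum replicate 1 and lowest in calorie-restricted replicate 4, as were the means of the goblet lists. The mean of the 9 genes was 12.77, 12.57 and 12.64 in ad libitum replicates 1 to 3 and 12.57, 12.59, 12.33 and 12.33 in calorie-restricted replicates 1 to 4. Enteroendocrine markers were above 0 in 14 of 15 genes tested, beside 7268 of 13409 over all genes, with a median difference of 0.26. Their list means were 9.66 to 10.50 under calorie restriction and 9.64 to 10.21 in the ad libitum samples. Tuft cell markers were below 0 in 9 of 11, beside 45.8% of all genes, with a median of -0.13 and list means of 7.64 to 8.57 and 8.01 to 8.53. In both lists 0 genes passed (limma), with 2 and 0 at an unadjusted p below 0.05, beside 9.3% of all genes. The part that these markers have in the differences was not tested.

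**Figure D3:**
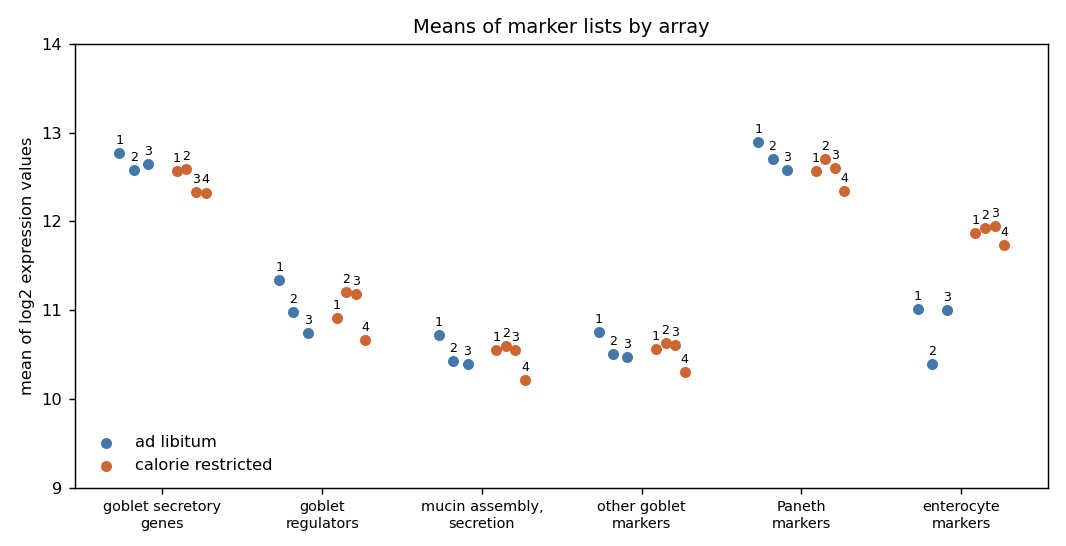
Mean log2 value of the measured members of 6 gene lists (y axis) in each ad libitum (blue) and calorie-restricted (orange) sample, with replicate numbers. The enterocyte means separate the diets (11.74 or more against 11.02 or less), and ad libitum replicate 1 is the highest and calorie-restricted replicate 4 the lowest array in the 4 goblet lists and the Paneth list.

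The transcription factors and unfolded-protein sensors of the goblet lineage overlapped between the diets. Of 14 regulators tested, 0 passed (limma), 0 had an unadjusted p below 0.05, and 0 had diets that did not overlap, with a median difference of -0.05. Spdef, which drives goblet and Paneth maturation, was at 12.50, 12.17 and 11.69 in the ad libitum samples and at 11.69, 12.06, 11.93 and 11.46 under calorie restriction. Both diets covered much of the same range. Atoh1, which commits cells to the secretory lineage, had a difference of -0.23 ± 0.19, and Ern2, an unfolded protein sensor of goblet cells, of -0.24 ± 0.12. The forkhead factor Foxa1 was at 0.21 ± 0.17.

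Genes that glycosylate and fold mucin, load its granules or carry ions for its release had a median difference of -0.07. Of 40 tested, 28 were below 0, beside 45.8% of all genes, a count made without median centring. In this list 0 passed (limma), 5 had an unadjusted p below 0.05, and 3 had diets that did not overlap. Beside the 9.3% and 10.2% of all genes given above, the last 2 counts are near the background and are not a result about this list. Its genes with the smallest p are given as values. Gmds, the first enzyme of GDP-fucose synthesis, was at 12.08 ± 0.04 (n = 4) against 12.35 ± 0.14 (n = 3), with a difference of -0.27 ± 0.08 (adjusted p = 0.264). Sytl4, an effector of granule docking, had a difference of -0.32 ± 0.13. In the other direction lay Atp2c2, a calcium pump of the secretory pathway (0.38 ± 0.09, adjusted p = 0.160), and Slc26a3, a chloride-bicarbonate exchanger of absorptive cells (0.84 ± 0.26, adjusted p = 0.316). The enterocyte markers moved in the same direction as the latter genes.

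Of 32 other goblet markers tested, 19 were below 0, beside 45.8% of all genes, with a median of -0.08, again without median centring. In this list 0 passed (limma), 4 had an unadjusted p below 0.05 and 2 had diets that did not overlap. The last 2 counts too are near the shares over all genes, 9.3% and 10.2%, and are no result about the list. The non-overlapping genes were Capn8, a calpain protease, at 9.85, 10.02 and 9.96 in the ad libitum samples and 9.57, 9.39, 9.60 and 9.54 under calorie restriction (-0.41 ± 0.09, adjusted p = 0.114), and Clca4b. Clca4b, a relative of Clca1, had the opposite sign to it. It was at 11.14, 11.62 and 11.66 in the ad libitum samples and 12.09, 12.09, 12.11 and 11.75 under calorie restriction (0.54 ± 0.15, limma, adjusted p = 0.233). Fxyd3, a regulator of the sodium pump, had a difference of -0.35 ± 0.13 and the anion channel gene Best2 of 0.74 ± 0.28, its ad libitum mean of 6.82 being close to the filter level.

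Of 9 genes of the guanylate cyclase C axis, which include Guca2a itself, 1 passed the threshold, beside 0.664% of all genes. Slc9a3r1, a scaffold that tethers the sodium-hydrogen exchanger NHE3 and the channel CFTR in the brush border, rose from 10.92 ± 0.10 (n = 3) to 11.46 ± 0.09 (n = 4), 1.45-fold (limma, adjusted p = 0.0411). The call depended on the arrays and the scaling used, being kept in 7 of 14 alternatives and lost in 7. It was kept after quantile normalization (limma, adjusted p = 0.0406). It was also kept without calorie-restricted replicate 4 (0.0370) and without ad libitum replicate 1 (0.0288). Leaving out calorie-restricted replicate 1, 2 or 3 gave an adjusted p of 0.144, 0.140 or 0.138, and leaving out the second or the third ad libitum sample gave 0.187 or 0.0988. It was also lost after median centring (0.0904) and with the replicate block (0.175), while the difference stayed between 0.50 and 0.62 over 14 alternatives. Slc9a3, which encodes that exchanger, was at 8.80, 7.77 and 8.90 against 9.38, 9.03, 9.04 and 9.09 (0.64 ± 0.26, adjusted p = 0.494). The anion exchanger Slc26a6 had a difference of 0.75 ± 0.17 (adjusted p = 0.145) and the cyclic GMP kinase Prkg2 of 0.40 ± 0.19. The ligands and the receptor were closer between diets. Guca2b, uroguanylin, was at 13.96 ± 0.07 (n = 4) against 14.01 ± 0.08 (n = 3), and the receptor gene Gucy2c had a difference of 0.09 ± 0.08. The brush border genes of this list are expressed in enterocytes, whose markers were higher in the same arrays. The part of enterocyte RNA in these differences was not tested.

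**Figure D4:**
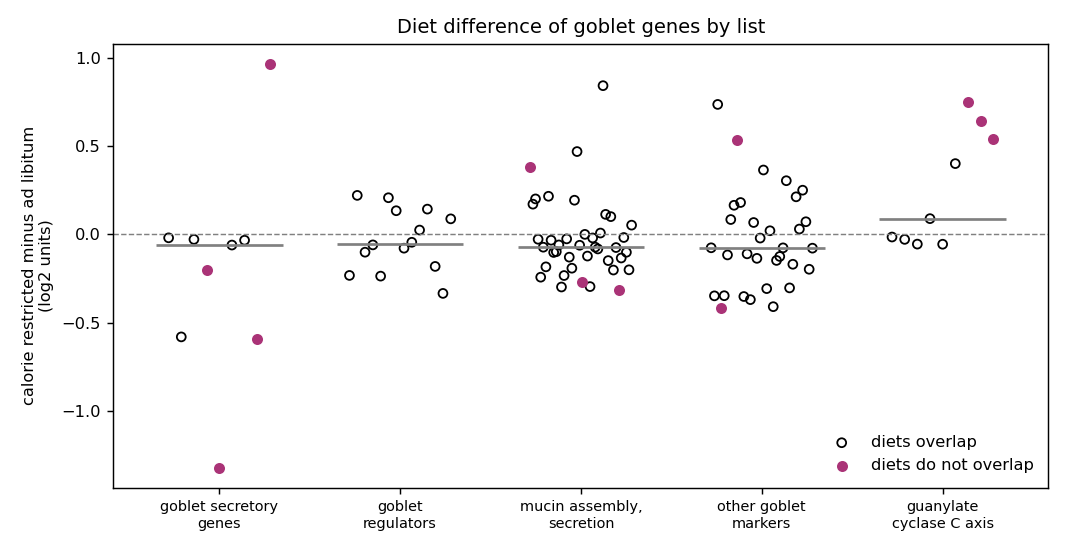
Diet difference (y axis, log2 units) of each tested gene in 5 lists, with the list median as a grey bar and filled points for genes whose diets do not overlap. The medians lie between -0.08 and 0.09, and the largest differences in size among these lists are those of Retnlb (-1.32) and Zg16 (0.96).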

How the data were processed

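The data are 7 Affymetrix arrays of sorted mouse Paneth cells, 4 calorie restricted and 3 ad libitum. The deposited values are log2 expression per transcript cluster. The authors used Affymetrix Expression Console, according to the submitters' processing notes. The sources used here do not give its algorithm, background correction or normalization, and the log2 scale was inferred from the range. Precision is limited by the number of arrays, among other things.

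The platform annotation gave 1 gene for 21789 of 35556 clusters, several for 1621 and none for 12146. RefSeq identifiers (GRCm38.p6) changed 0 symbols. For each gene the cluster with the highest mean was kept, and genes below the 40th percentile of cluster means (6.79) were left out. The test was lmFit and eBayes of limma (version 3.58.1, under R version 4.3.3) with intensity trend and no covariate, and calls were made at an adjusted p below 0.05. The fit was tested on simulated data, drawn independently for each gene. Those data lack the variation that genes of an array share, so the simulation does not show how well calls hold in these arrays. The genes and lists were chosen with earlier results of these data known. From each list the 4 genes with the smallest p, all called genes and the 2 with the highest mean were candidates for naming. The 14 alternatives were 2 scalings, 2 filters, the mean of clusters, no trend, the replicate block and leaving out each array. The replicate block added the replicate number as a covariate. Its differences are the same as those without calorie-restricted replicate 4.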

Additional observations from a re-analysis of the deposited data

Results flagged for a closer look

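In groups of 4 arrays, 1 array was checked for standing far from the others by Dixon's ratio, the gap to its neighbour over the group's range. Groups of 3 were not checked. Among 43 sets of calorie-restricted values, 6 were above its 95% critical value, where chance gives about 1 in 20. In 5 of them calorie-restricted replicate 4 was the low array: Spink4 (ratio 0.844), Reg4 (0.963), Clca4b (0.939), Xbp1, which expands the secretory pathway (0.849), and the mean of the mucin assembly list (0.881). Slc9a3 had a ratio of 0.831, with replicate 1 the high array. Without calorie-restricted replicate 4 the difference of Spink4 was -0.03.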

How the results depend on the processing

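No member passed the threshold in any of the 14 alternatives. Muc2, Clca1, Zg16, Retnlb and Tpsg1 kept their direction in all of them. For Muc2, Zg16, Retnlb and Tpsg1, whose diets do not overlap, this is certain where only an array is left out. Median centring gave 0.0538 for Tff3, 0.0674 for Agr2, 0.0265 for Spink4 and 0.0586 for Guca2a, so 4 members were below 0 and 2 had diets that did not overlap. It left 0 genes called lower, with 63 lower at an unadjusted p below 0.05 (limma). Leaving out 1 array gave -0.0869 to 0.0195 for Tff3 and -0.0736 to 0.0252 for Agr2. The counts over all genes were 12 to 97 higher and 0 to 9 lower when 1 array was left out, against 88 and 1. They were 53 higher and 0 lower after quantile normalization (231 lower at an unadjusted p below 0.05), 2 lower with no filter, and 0 lower with the 60th percentile filter (166). With the replicate block, 0 genes were called in either direction (limma, 988 at an unadjusted p below 0.05), and Tff3 and Agr2 were at 0.0195 and 0.0177. That fit matches calorie-restricted replicate 4 exactly, because no ad libitum sample shares its number. Its differences therefore equal those without that array (-0.222 for Muc2 in both) and are no separate check on direction. The block also leaves less for estimating the spread, so its loss of calls says nothing of pairing. The labels do not say whether replicate numbers pair the arrays. Deviations of same-numbered arrays correlated at -0.13, -0.27 and -0.55, where all pairs across the diets ran from -0.73 to 0.64. These correlations cannot settle pairing, because the deviations within each diet sum to 0. Median centring shifts all genes of an array by the same amount, and so shifted every diet difference by the same amount. The array medians were 7.26, 7.24, 7.27 and 7.42 in calorie-restricted replicates 1 to 4. In ad libitum replicates 1 to 3 they were 7.29, 7.44 and 7.42. The cause of these unequal medians, and of the changes in the other settings, was not tested. No detection call was used, so no member's level is set against background.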
